A study of Homo sapiens with 18 samples.

Results

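Stretches of the genome that carried neither H3K9me3 nor H3K27me3 domains in control U937 cells, and that lay inside H3K27me3 domains in every library of SUV39H knockout cells, are described here. Chromosomes 1 to 22 were divided into 287272 bins of 10 kb, and a bin was called marked when at least 50% of it lay inside the domains that the authors called in a library. Of these bins, 129599 were unmarked in all 4 libraries of control cells, and they are called eligible below. The members are the 3767 eligible bins, 37.7 Mb in all, that were marked for H3K27me3 in all 4 knockout libraries. They make up 2.91% of the eligible bins, and no member was filtered out. The members were chosen by these H3K27me3 and H3K9me3 domain values, which are therefore given as a description, with no test.

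U937 is an established human acute myeloid leukaemia line. Chromatin immunoprecipitation with sequencing (ChIP-seq) was run for both marks in 3 genotypes with 2 libraries each, namely cells labelled sgControl, SKO cells knocked out for SUV39H1, and DKO cells knocked out for SUV39H1 and SUV39H2. SETDB1 was mapped in 2 libraries of wild-type (WT) cells, which are not the sgControl cells. All groups are U937 cells, and the labels name no treatment. The labels do not say whether a knockout line is 1 clone or a pool, nor whether the 2 libraries of a group are from different cultures, and their spread may be technical only. The 4 input samples of the series were not analysed here.

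SUV39H1 and SUV39H2 are enzymes that place H3K9me3, the mark of constitutive heterochromatin. H3K27me3 is placed by Polycomb repressive complex 2, whose catalytic subunit is EZH2, and it covers silent developmental genes in narrow and broad domains. Both marks accompany gene silencing, and CpG-rich promoters are known as sites where Polycomb complexes are recruited. SETDB1 is a further H3K9 methyltransferase that acts at transposable elements and zinc finger genes.

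Promoters of both kinds, rich and poor in CpG, lay in the members. The 4 sequences below show the range, since they are the ones of highest and lowest CpG ratio among the 21 genes that are named here, are held by members (at least 50% of the gene body in member bins) and have a promoter in the RefSeq table of GRCh38.p14. Each runs 5′ to 3′ on the gene's strand, from 250 bases before the start to 50 after it, with every CG pair in capitals. The CpG ratio is the number of CG pairs over the number that the C and G content would give. ADAM23 encodes a disintegrin-domain adhesion protein of neurons, and its promoter (chr2:206443282-206443581, plus strand) held 41 CG pairs at a ratio of 1.04. KLF14 encodes a zinc finger transcription factor, and its promoter (chr7:130734158-130734457, minus strand) held 39 at 1.03. The promoter of IL2, the gene of the T cell growth factor interleukin 2 (chr4:122456676-122456975, minus strand), held 1 CG pair at a ratio of 0.11. That of SLCO1B3, a liver organic anion transporter gene (chr12:20810455-20810754, plus strand), held 0. Among all 21154 protein-coding starts in that table, 7.39% and 7.95% had a ratio at least as high as ADAM23 and KLF14, and 93.7% one at least as high as IL2. Each of the 4 promoters lay wholly inside H3K27me3 domains in all 4 knockout libraries and wholly outside them in both sgControl libraries.
ADAM23: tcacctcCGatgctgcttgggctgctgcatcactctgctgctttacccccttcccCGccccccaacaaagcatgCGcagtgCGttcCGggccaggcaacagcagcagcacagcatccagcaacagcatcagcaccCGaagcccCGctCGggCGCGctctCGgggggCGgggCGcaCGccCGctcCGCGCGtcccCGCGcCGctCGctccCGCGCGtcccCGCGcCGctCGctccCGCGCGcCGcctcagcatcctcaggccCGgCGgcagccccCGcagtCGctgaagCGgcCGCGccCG
KLF14: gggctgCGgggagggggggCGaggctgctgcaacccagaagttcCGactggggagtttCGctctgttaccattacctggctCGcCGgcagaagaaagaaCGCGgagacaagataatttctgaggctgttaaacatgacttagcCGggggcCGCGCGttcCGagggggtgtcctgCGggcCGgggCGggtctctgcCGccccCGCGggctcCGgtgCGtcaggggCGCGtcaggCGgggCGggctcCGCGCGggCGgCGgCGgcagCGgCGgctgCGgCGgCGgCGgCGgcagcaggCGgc
IL2: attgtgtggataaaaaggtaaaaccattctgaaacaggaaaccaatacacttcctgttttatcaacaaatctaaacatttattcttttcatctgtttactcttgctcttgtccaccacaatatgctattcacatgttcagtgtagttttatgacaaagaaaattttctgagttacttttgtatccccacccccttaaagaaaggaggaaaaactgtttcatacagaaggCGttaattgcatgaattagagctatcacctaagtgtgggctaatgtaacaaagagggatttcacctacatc
SLCO1B3: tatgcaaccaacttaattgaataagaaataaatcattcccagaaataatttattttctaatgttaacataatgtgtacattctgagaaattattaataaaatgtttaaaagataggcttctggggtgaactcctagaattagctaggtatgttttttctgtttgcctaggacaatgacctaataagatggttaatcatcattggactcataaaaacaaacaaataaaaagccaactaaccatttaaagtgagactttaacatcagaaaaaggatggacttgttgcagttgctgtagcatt

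The members were nearly full in the knockouts and nearly empty in the controls. The mean share of a member inside H3K27me3 domains was 1.56% and 1.28% in the sgControl libraries, 94.7% and 93.6% in SKO and 94.9% and 94.1% in DKO. SKO averaged 94.1% ± 0.770 and DKO 94.5% ± 0.536 (SD, n = 2), so the genotypes overlapped. In 2152 members (57.1%) all 4 knockout libraries covered the whole bin, and in 2514 (66.7%) no control domain of either mark touched the bin. These 2514 were 2.16% of the eligible bins that no control domain touched, below the 2.91% over all eligible bins. Control coverage was higher in members than in the other eligible bins, where H3K27me3 averaged 0.585% and 0.569%. Control H3K9me3 averaged 5.31% and 4.62% in members and 1.41% and 1.22% in the other eligible bins. A control H3K9me3 domain touched 1050 members and a control H3K27me3 domain 274, each below the 50% limit. At the edge of the rule, bins of chromosome 1 at 62170001 and 69290001 were inside with 52% in their lowest knockout library. The neighbouring bin at 62180001 was outside with 48%.

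Most eligible bins that carried H3K27me3 in the knockouts carried it in both genotypes. Against the 3767 members, 426 eligible bins were marked in both DKO libraries and neither SKO library, and 315 in both SKO libraries and neither DKO library. A further 121851 were marked in none of the 4. Because the rule asks for both genotypes, these counts describe the choice of members and do not compare the genotypes.

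The members formed 1983 stretches of neighbouring bins. Of these, 1134 were single bins, 130 spanned at least 50 kb and 13 at least 100 kb, and 69.9% of the members lay in stretches of 2 or more bins. The longest ran over 150 kb without a protein-coding gene, at chr4:174010001-174160000. It was inside H3K27me3 domains over 94.1% to 100% of its length in the knockout libraries and 0% in both controls. A gene-free stretch of 140 kb followed at chr6:121960001-122100000, with HSF2 as its nearest gene at 299.6 kb. The third longest gene-free one, of 90 kb at chr4:130280001-130370000, lay 1163 kb from the nearest gene, C4orf33. H3K9me3 was at 0% in all 4 knockout libraries over each of these 3 stretches.

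Chromosome 4 held 803 members, 21.3% of all of them and 11.6% of its own eligible bins. Chromosomes 5, 6 and 12 followed with 486, 385 and 350 members, which are 5.74%, 5.74% and 5.11% of their eligible bins. At the other end, chromosome 22 held 2 members (0.0456%), chromosome 19 held 11 (0.341%) and chromosome 16 held 25 (0.436%). Chromosome 8 carried control H3K9me3 over more of its bins (62.5%) than chromosome 4 (20.1%), and 1.62% of its eligible bins were members. The plot by chromosome shows this spread.

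**Figure D1:**
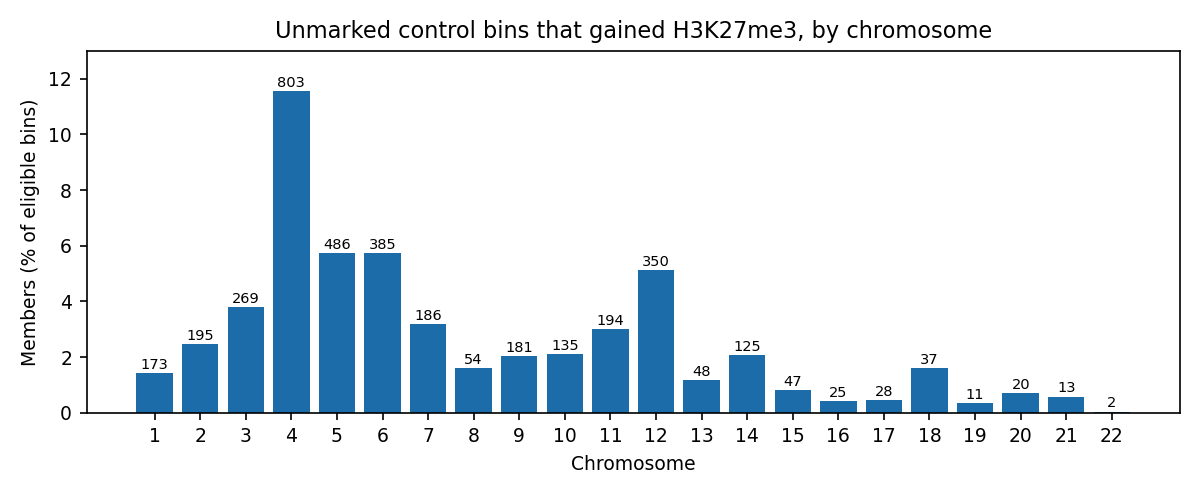
Share of eligible 10 kb bins that are members, in percent, by chromosome, with the number of members over each bar. Chromosome 4 stands highest at 11.6% with 803 members and chromosome 22 lowest with 2.

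H3K9me3 domains of the control cells often lay right beside the members. A control H3K9me3 domain was within 10 kb of 59.1% of the members and 17.5% of the other eligible bins, and the median distance was 6.4 kb against 96.4 kb. Bins unmarked in control that were marked for H3K9me3 in all 4 knockout libraries had 56.8% within 10 kb and a median of 6 kb, so nearness to control H3K9me3 was not particular to the members. A control H3K27me3 domain was within 10 kb of 16.6% of the members and 6.24% of the other eligible bins, with medians of 220 and 372 kb. By stretch, 1204 of 1983 (60.7%) had a control H3K9me3 bin on at least 1 side and no control H3K27me3 bin on either. Another 202 had H3K27me3 alone beside them, 237 had both marks and 340 had neither. Counting only control domains found in both libraries, the share of members within 10 kb was 39.95% for H3K9me3 and 12.9% for H3K27me3. These distances come from libraries that the rule read, so they are a description.

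Around the members H3K27me3 was broad in the knockouts and H3K9me3 was thin. At 100 kb to the right of a member, H3K27me3 domains covered 14.8% and 14.99% of the bin in the sgControl libraries, 69.0% and 68.5% in SKO and 70.0% and 68.2% in DKO. The means over all bins were 35.6% to 35.7% in sgControl and 39.1% to 39.97% in the knockouts. The surroundings lay below the genome-wide mean in control and above it in every knockout library. The rule read these libraries and domains run over neighbouring bins, so this is a description tied to the choice of members. At the same distance H3K9me3 domains covered 34.3% and 33.2% in sgControl, 16.3% and 16.6% in SKO and 18.9% and 18.4% in DKO. Over all bins, H3K9me3 covered 34.7% to 35.8% in sgControl and 25.7% to 26.9% in the knockouts.

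**Figure D2:**
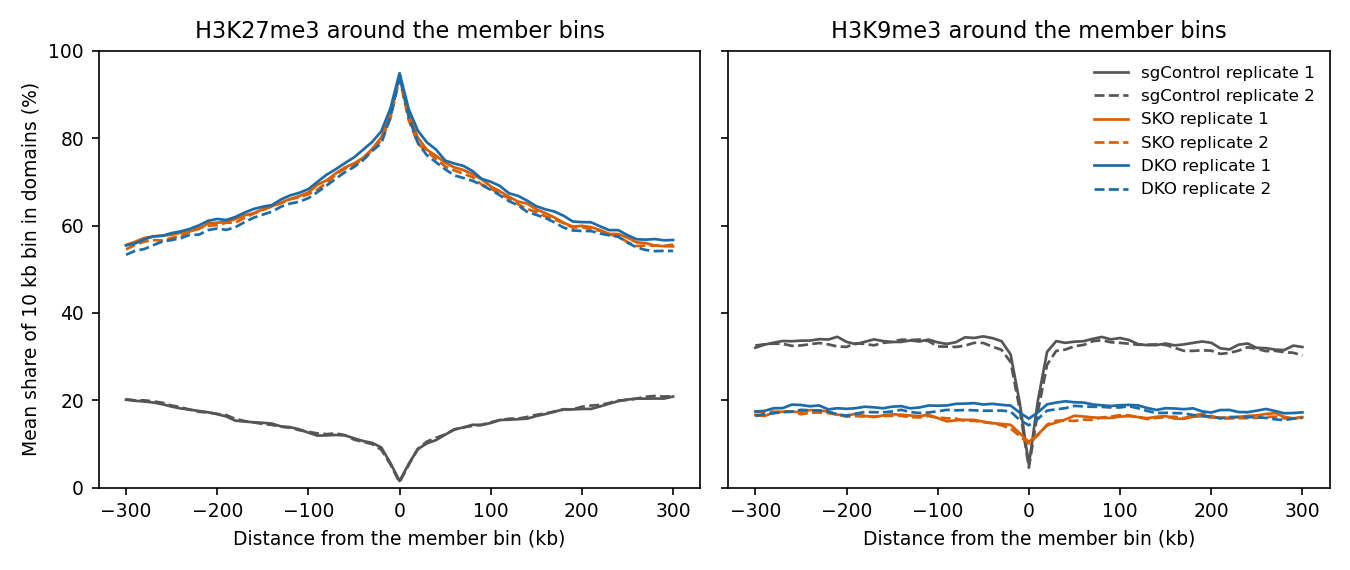
Mean share of a 10 kb bin inside H3K27me3 (left) and H3K9me3 domains (right), in percent, against the distance from the member bin in kb, with 1 line per library. H3K27me3 in the 4 knockout libraries peaks at 93.6% to 94.9% at the member and is still near 68% to 70% at 100 kb, while control H3K9me3 dips to about 5% at the member between shoulders of about 33%. The peak and the dip at the member follow from the rule, which read these libraries.

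Bins with control H3K9me3 alone that flanked a stretch were followed into the knockouts. Both sgControl H3K9me3 libraries marked them and no sgControl H3K27me3 library did. Of 595 such bins, 267 (44.9%) were marked for H3K9me3 in none of the 4 knockout libraries, against 19.7% of all 34591 bins with control H3K9me3 alone. H3K27me3 marked 543 of them (91.3%) in all 4 knockout libraries, against 29.4% of all such bins. Both held for 238 flanking bins (40%) and for 7.86% of the whole class. Flanking bins were found through their neighbours' H3K27me3, so the second share and the joint share are tied to the choice of members. Each flanking bin also lies beside a bin that was unmarked in control, while the whole class takes in bins deep inside H3K9me3 domains. The first share therefore compares unlike bins, and flanking bins were not compared with other bins at domain edges.

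The knockout domains that held members also ran over sequence that had carried H3K9me3. In SKO, 1578 and 1659 H3K27me3 domains held at least 1 member, and in DKO 1590 and 1653. Their median widths were 43.2 to 49.6 kb, against 31.2 to 32.8 kb for all domains. Wider domains cross more bins, so this difference is tied to the choice of domains. For the domains with members, the control marks were as follows. Between 62.0% and 63.9% of their length lay in H3K9me3 domains of an sgControl library, and 31.2% to 33.1% in control H3K27me3 domains. Neither mark had covered 27.8% to 28.8%. The same shares for all knockout H3K27me3 domains were not computed. Of the 103799 bins marked for H3K27me3 in all 4 knockout libraries, 46836 had both marks in control and 10182 had H3K9me3 alone. The overlap with control H3K9me3 is therefore not shown to be particular to domains with members. Of the domains that held members, 537 to 652 per library were made of members over at least 50% of their length. In each library these held fewer reads per kb than the median H3K27me3 domain, with 43.8 against 45.2 and 37.3 against 38.9 in SKO, and 42.8 against 44.0 and 29.9 against 31.3 in DKO. Read counts are those of each library and are not scaled for depth, so densities are compared only within a library.

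H3K9me3 in the knockouts was not read by the rule, and most members lacked it. In 2800 members (74.3%) no knockout library was marked for H3K9me3, against 88.8% of the other eligible bins. The members thus lacked it less often than those bins. In SKO 10.2% and 10.0% of the members were marked, and in DKO 16.0% and 14.7%, so both DKO libraries lay above both SKO libraries. The means were 10.1% ± 0.131 in SKO and 15.3% ± 0.920 in DKO (SD, n = 2). Among the other eligible bins the order was the opposite, with 7.44% and 7.69% in SKO and 5.94% and 6.34% in DKO. Those within 50 kb of a control H3K9me3 domain, a comparison chosen after the data were seen, had 15.3% and 15.9% in SKO and 12.3% and 13.2% in DKO. The order of the members was not particular to them. Bins with control H3K27me3 alone had 5.61% and 5.39% in SKO and 11.9% and 11.5% in DKO, and bins with both marks in control 57.1% and 56.4% in SKO and 67.1% and 65.1% in DKO. With the highest scored 50% of domains, the SKO mean of the members was 5.89%, below the 6.75% of the other eligible bins, where it was above them with all domains. At equal covered length it was 17.8%. An exact permutation test of 2 against 2 libraries cannot give a two-sided p below 0.333, so none was run.

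Counted in both libraries of a genotype, 238 members (6.32%) were marked for H3K9me3 in SKO, close to the background of 5.64% of all eligible bins. In DKO 345 members (9.16%) were marked, against a background of 4.57%. All 4 libraries marked 137 members (3.64%), against 3.41%. H3K9me3 in both DKO libraries and neither SKO library was found in 120 members (3.19%) and in 0.389% of the other eligible bins. The reverse was found in 50 members (1.33%) and 1.12%.

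Chromosome 7 had the opposite order. Of its 186 members, 33.3% and 32.8% were marked for H3K9me3 in SKO and 4.84% and 5.38% in DKO. The shares for the other eligible bins of chromosome 7 were not computed, so this order is not shown to be particular to the members. Without chromosome 7 the means over all other eligible bins moved from 7.57% to 7.36% in SKO and from 6.14% to 6.24% in DKO. On chromosomes 17, 18 and 21, with 28, 37 and 13 members, the genotypes overlapped or tied. On chromosomes 16 and 22, with 25 and 2 members, the share was 0% in every knockout library. Without chromosome 7 the means over the members were 8.94% in SKO and 15.9% in DKO. Chromosomes 4 and 5, which held 803 and 486 members, had 5.23% and 4.36%, and 5.14% in both libraries, in SKO, and 10.6% and 7.97%, and 8.23% and 7.82%, in DKO. The share for DKO minus SKO, in percentage points, was 5.20 over the members, -1.43 over the other eligible bins and -2.82 over those near control H3K9me3. It kept its sign in each of these 3 classes at 25% and 75% of the bin, with 5 kb and 20 kb bins, with the highest scored 50% of domains, at equal covered length, and without chromosome 7.

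SETDB1 peaks of wild-type cells were sparse in the members. The 37.7 Mb of members held 48 and 55 peak summits in the 2 libraries, which is 1.27 and 1.46 per Mb. The other eligible bins held 5.52 and 5.72 per Mb, and those within 50 kb of control H3K9me3 held 8.50 and 8.67. The density in members was 0.231 and 0.255 times that of the other eligible bins, a mean of 0.243 ± 0.0172 (SD, n = 2). A summit of both libraries fell in 18 members (0.478%), against a background of 2.65% of eligible bins. Members that touched a gene had 1.34 and 1.27 summits per Mb and gene-free ones 1.23 and 1.58, so the low density was found in both. Bins that were unmarked in control and marked for H3K9me3 in all 4 knockout libraries, 4424 in number, held 40.2 and 41.5 summits per Mb. Bins with control H3K27me3 alone held 1.34 and 1.53, near the members.

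**Figure D3:**
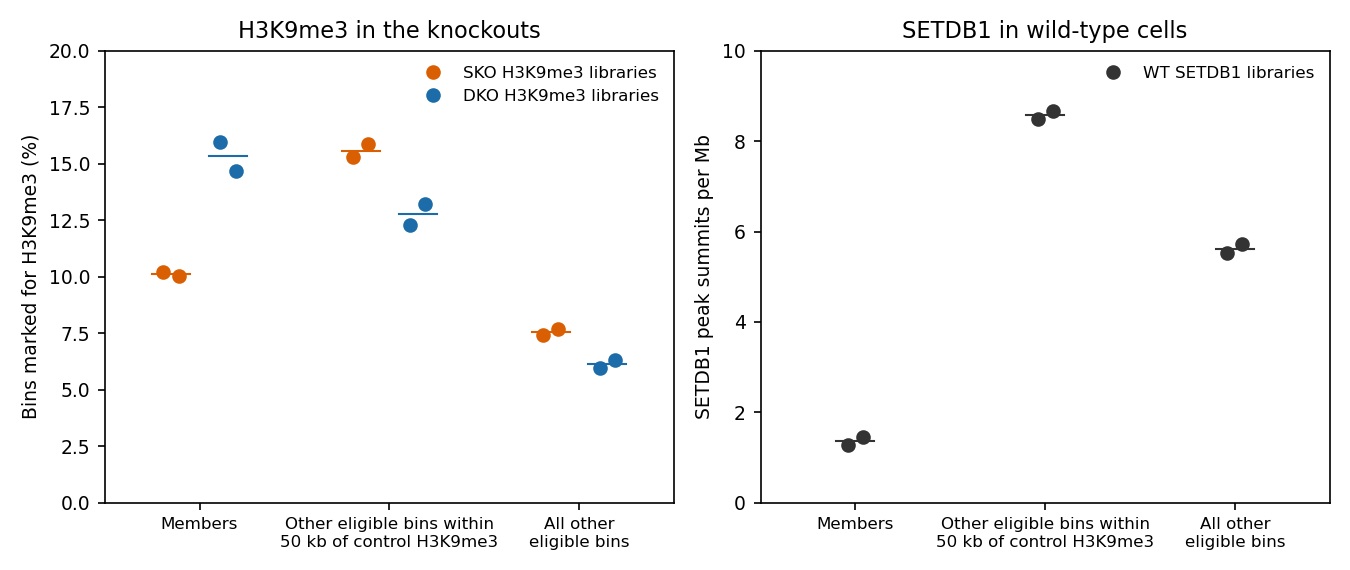
Left, percent of bins marked for H3K9me3 in each SKO and DKO library; right, SETDB1 peak summits per Mb in each WT library; points are libraries and short lines their means (n = 2). Members have more H3K9me3 in DKO (15.3%) than in SKO (10.1%), the opposite order to the 2 other classes plotted, and fewer SETDB1 summits (1.27 and 1.46 per Mb) than either. Bins with control H3K27me3, which share the order of the members, are not plotted.

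The members were poor in genes. Of the 3767 members, 1491 (39.6%) touched a protein-coding gene body, against a background of 57.2% of eligible bins and 62.0% of the other eligible bins near control H3K9me3. Protein-coding starts in the promoter table, which can list several for 1 gene, lay at 3.34 per Mb in members and 12.6 per Mb in the other eligible bins. Bins with control H3K27me3 alone and H3K9me3 alone had 3.14 and 3.35 per Mb. Of the 126 protein-coding starts in members, 65 (51.6%, exact 95% binomial interval 42.5% to 60.6%) had a CpG ratio of at least 0.6. The share was 68.4% in the other eligible bins and 41.6% in bins with control H3K27me3 alone. The interval covers counting error only, and neighbouring starts are not independent.

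A gene is called held when at least 50% of its body lay in member bins. This was the case for 87 of the 14240 protein-coding genes that had at least 50% of the body in eligible bins, a background of 0.611%. Their H3K27me3 coverage had a median of 0% in both sgControl libraries, with 80 and 81 of the 87 genes at 0%. In the knockout libraries the median was 98.9% to 100%, and 43 to 50 genes were covered over 100%. These values follow from the rule. H3K9me3 covered at least 50% of the body in both SKO libraries in 9 held genes and in both DKO libraries in 12. The share of all eligible genes with such coverage was not computed, so these counts are no result about the held genes.

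Genes of neuronal adhesion and guidance were held in 3 of 50 cases, against the background of 0.611% of eligible genes. The counts of this list and of those below rest on few genes each and were not tested. They are therefore no result about a list. CNTN1 and CNTNAP4 encode neuronal cell adhesion proteins and NTN4 a secreted netrin. NTN4 was outside H3K27me3 domains in both sgControl libraries and inside over 91.6% and 69.4% of its body in SKO and 91.6% and 93.4% in DKO. CNTN1 was already covered over 36.1% and 35.5% in sgControl, and over 94.5% and 97.3% in SKO and 95.2% and 93.7% in DKO. CNTNAP4 was covered over 18.6% and 21.8% in sgControl, 95.8% and 94.6% in SKO and 91.2% and 94.3% in DKO. For CNTN1 and CNTNAP4 the member stretches lay next to H3K27me3 that the controls had too. H3K9me3 was 0% over CNTNAP4 in all 6 libraries.

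Cadherin-type genes were held once in each list, CDH6 among 15 cadherins and PCDH18 among 6 protocadherins. CDH6, a cadherin of kidney and neural crest, had 0% H3K27me3 in both sgControl libraries, 100% in both SKO libraries and 100% and 97.0% in DKO. PCDH18 lay in a stretch of 100 kb on chromosome 4, with 0% in both controls and 100% in all 4 knockout libraries. H3K9me3 was at 0% over PCDH18 in all 6 libraries, and at 9.45% to 35.4% over CDH6 with the genotypes overlapping.

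SHROOM3, which encodes an actin-binding protein that shapes epithelial cells, held the most member sequence, 244.8 kb of its body. H3K27me3 covered 0% in both controls, 98.9% and 100% in SKO and 100% in both DKO libraries. H3K9me3 lay over 30.6% and 14.3% of SHROOM3 in sgControl, 51.0% and 34.0% in SKO and 80.9% and 81.1% in DKO, so the DKO libraries carried both marks over most of the gene. LEF1, a Wnt pathway transcription factor gene of lymphocytes and the 1 held gene of 18 in the lymphoid list, had 0% H3K27me3 in both controls and 95.01% to 96.3% in the knockouts. Its H3K9me3 was 28.4% and 0% in sgControl, 20.4% and 13.2% in SKO and 48.1% and 73.2% in DKO. SLC1A1, a glutamate transporter gene, had 0% H3K27me3 in both controls, 82.7% and 58.5% in SKO and 100% and 83.5% in DKO, and H3K9me3 of 0% and 25.6% in sgControl, 0% and 21.4% in SKO and 80.3% and 81.9% in DKO. In these 3 genes both DKO libraries lay above the other 4 for H3K9me3. They were singled out after their values were seen, and they were not tested.

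Other genes had no H3K9me3 domain in the knockouts. ITGA2, the integrin alpha 2 gene of the collagen receptor, had H3K9me3 over 16.7% and 28.3% in sgControl and 0% in all 4 knockout libraries, and H3K27me3 of 0% in both controls and 94.3% to 100% in the knockouts. GUCY1A1, a soluble guanylate cyclase subunit gene that a 100 kb stretch touched without holding it, had H3K9me3 of 49.4% and 18.6% in sgControl and 0% in all knockouts, with H3K27me3 at 0% and 100%. ELMOD1 was covered by H3K27me3 over 100% in all 4 knockout libraries and CABCOCO1 over 84.6% to 96.1%, both from 0% in the controls, and neither carried H3K9me3 in any library. ADAM23 had 0% H3K27me3 in both controls, 100% and 95.5% in SKO and 100% in both DKO libraries. Unlike these, ADAM23 had H3K9me3 over 27.7% and 15.5% in sgControl, 48.8% and 27.9% in SKO and 39.6% and 55.1% in DKO.

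**Figure D4:**
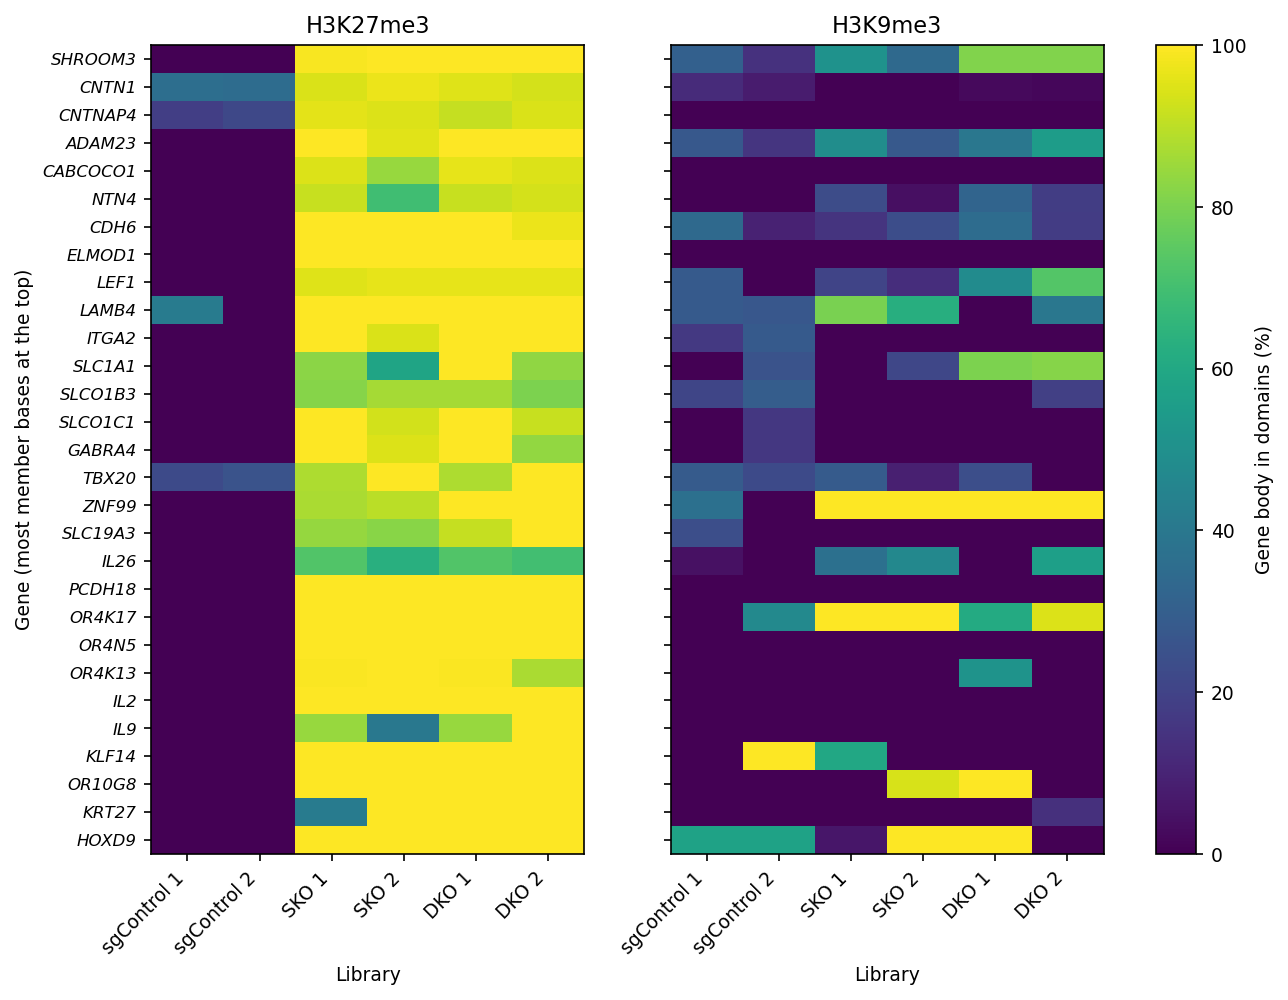
Percent of the gene body inside H3K27me3 (left) and H3K9me3 domains (right) in each of the 6 libraries per mark, for the named genes held by members, ordered by member bases. H3K27me3 is at 0% in both sgControl libraries for most genes and near 100% in the knockouts, while H3K9me3 differs between genes and is at 80.3% to 81.9% in the DKO libraries for SHROOM3 and SLC1A1, at 100% in all 4 knockout libraries for ZNF99 and at 0% throughout for CABCOCO1, ELMOD1, PCDH18, IL2 and others.

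Cytokine genes were held in 3 of 66 cases, against the background of 0.611%, and this was not tested. IL2 had 0% H3K27me3 in both controls and 100% in all 4 knockout libraries, with no H3K9me3 in any. IL9, a mast cell and T cell cytokine gene, had 0% in the controls, 84.6% and 40.1% in SKO and 84.6% and 100% in DKO. IL26, of the interleukin 10 family, had 0% in the controls and 63.2% to 73.0% in the knockouts. Small genes such as IL9 rest on few steps of the 800 bp grid on which the domain edges lie.

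The list of developmental regulators had TBX20, a heart T-box factor gene, and KLF14 among 88 eligible genes, and HOXD9 was the 1 of 29 HOX genes. TBX20 had 22.6% and 25.7% H3K27me3 in sgControl and 87.6% to 100% in the knockouts. HOXD9 and KLF14 were at 0% H3K27me3 in both controls and 100% in all 4 knockout libraries. KLF14 carried H3K9me3 over 0% and 100% in the sgControl libraries. HOXD9 carried H3K9me3 over 57.8% in both sgControl libraries, 6.17% and 100% in SKO and 100% and 0% in DKO. Replicates of some genotypes thus differed widely in these short genes. No gene was held in the lists of homeobox regulators outside HOX (0 of 64), developmental signalling (0 of 60) and ion channels (0 of 78). At the background of 0.611% of eligible genes, this is no result about lists of this length. The ion channel list takes only the KCN, SCN, CACN, HCN and TRP families. The held genes CFTR, a chloride channel gene, and GLRA3, a glycine receptor gene, lie outside it and were named after their values were seen.

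Receptor, transporter and matrix genes added single cases, to be read beside the background of 0.611% of eligible genes. Transporters had 4 of 311 held, SLC1A1, SLCO1B3, SLCO1C1 and the thiamine transporter gene SLC19A3. SLCO1B3 was covered by H3K27me3 over 0% in the controls and 80.3% to 86.4% in the knockouts, and SLCO1C1, a thyroid hormone transporter gene on the same chromosome, over 0% and 91.7% to 100%. GABRA4, a GABA receptor subunit gene and 1 of 13 in its list, was covered over 0% in the controls, 100% and 94.6% in SKO and 100% and 83.9% in DKO. Matrix and integrin genes had 2 of 48, ITGA2 and LAMB4. LAMB4, a laminin chain gene on chromosome 7, had 41.8% and 0% in the sgControl libraries and 100% in all knockouts. The metalloprotease list had ADAM23 as 1 of 39, and the keratin list had KRT27 as 1 of 56, with 41.7% and 100% in SKO and 100% in both DKO libraries.

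Olfactory receptor genes were held in 6 of 78 cases, against the background of 0.611%, and this was not tested. Of these, OR4K17, OR4N5, OR4K13 and OR4L1 lie in 1 cluster on chromosome 14 and OR10G8 and OR10G9 in another on chromosome 11, so they share stretches and are not separate cases. OR4N5 had 0% H3K27me3 in both controls and 100% in all 4 knockout libraries. ZNF99 was the 1 held zinc finger gene of 164 and carried both marks, with H3K9me3 over 100% in all 4 knockout libraries and 37.0% and 0% in sgControl. Genes of both families have near-identical relatives, and the labels do not say how reads with several matches were handled, so single values are uncertain.

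Other gene lists had no held gene, which at the background of 0.611% of eligible genes is no result about lists of this length. They were the myeloid genes (0 of 22), interferon genes (0 of 16), interferon stimulated genes (0 of 35), antigen presentation genes (0 of 18), histone genes (0 of 75), Polycomb genes (0 of 24), H3K9 methylation genes (0 of 14), housekeeping genes (0 of 18), erythroid and megakaryocyte genes (0 of 8), adhesion GPCRs (0 of 13), cytochromes P450 (0 of 27) and taste receptors (0 of 17). The interferon stimulated list does not take in IDO1, an interferon-inducible gene that was held. The median share of the gene body in members was 0% in every list and over all genes. SUV39H1, SUV39H2 and EZH2 had no H3K27me3 in any library, so the domains do not check the knockouts. EZH2 carried H3K9me3 over 45.8% and 57.2% in SKO, 22.9% and 19.8% in DKO and 0% in sgControl.

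Of 1025 miRNA hairpins inside eligible bins, 5 lay inside members, which is 0.488%. MIR100, of the miR-99 family, and MIR10526 lie next to each other on chromosome 11 (chr11:122152229-122152308 for MIR100). Both had H3K27me3 over 100% in all 4 knockout libraries and 0% in both sgControl libraries, and H3K9me3 over 100% in both SKO libraries and the first DKO library and 0% in the second. The mature miR-100-5p, shown as the best known product of these hairpins with its seed (bases 2 to 8) in capitals, is given next.
hsa-miR-100-5p: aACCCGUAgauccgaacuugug

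Reads inside domains, the only depth in the files, ranged from 47.9 to 70.7 M reads for H3K27me3 and from 16.5 to 23.6 M for H3K9me3. Domains covered 1058 and 1062 Mb of H3K27me3 in sgControl and 1198 to 1225 Mb in the knockouts. The sgControl libraries had 50.3 and 48.5 M H3K27me3 reads, SKO 70.7 and 59.9 M and DKO 69.3 and 47.9 M. The part of depth in the choice of members was not tested. The deposited lists carry no spike-in factor, so they show where domains were called and not how much of the mark the cells held.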

How the data were processed

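ChIP-seq domain lists of H3K9me3 and H3K27me3 in sgControl, SKO and DKO cells and SETDB1 peak lists in WT cells were used, 2 libraries each. The authors called broad domains separately in each library, and the deposited files bear the name of epic2. The submitters' processing notes name SICER 0.052, deepTools 3.5.6, Trim Galore 0.6.10 and FastQC 0.12.1, and as builds dm6 and hg38. No aligner or read filter is stated there. Per the file headers, every domain has a read count and a score, and the score served to order the domains of 1 library. Each deposited SETDB1 peak carries a score, a fold enrichment and a −log10 p, of which the smallest was 5.00, and peaks were placed by their summit. Drosophila chromatin was added as a spike-in, per the labels' protocols, and the lists hold no factor for it.

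Coverage of 10 kb bins and gene bodies was computed with Python 3.11.15, numpy 2.4.6, pandas 2.3.3, scipy 1.17.1 and matplotlib 3.10.9. The rule was tested on simulated domains. Genes (19126 protein-coding on chromosomes 1 to 22) and promoters came from RefSeq tables of GRCh38.p14, in which 65 of the 87 held genes had a start. Named genes were those of the 10 longest stretches that touch a gene, and up to 4 held genes with most member bases per list. SUV39H1, SUV39H2 and EZH2 were added. The members and lists were chosen with earlier results of these data known. No test was made, because the rule read the libraries or because only 2 libraries stood on each side. Alternatives were other bin sizes, limits, domain subsets, chromosomes and left-out libraries.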

Additional observations from a re-analysis of the deposited data

How the results depend on the processing

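No paired analysis was possible because the results come from no test. Members were 2.91% of eligible bins, and 2.72% and 2.64% at 75% and 90% of the bin, 3.003% with 20 kb bins, 2.16% where unmarked means no control domain in the bin, 3.37% and 3.09% with the highest scored 50% and 80% of domains, 3.22% at equal covered length, 4.43% with chromosome X, 3.36% without gap stretches, and 3.56% and 3.71% by SKO or DKO alone. Leaving out 1 library gave 3.06% to 4.03%, and without the first or second sgControl H3K9me3 library 5562 and 5274 bins qualified in place of 3767. H3K9me3 marked 10.1% of members in SKO and 15.3% in DKO. The SKO share was 9.63% and 10.8% at 25% and 75%, 10.5% and 9.38% with 5 and 20 kb bins, 8.94% without chromosome 7, and 9.69% to 10.2% with 1 library left out. With the highest scored 50% of domains the shares were 5.89% and 10.9%, at equal covered length 17.8% and 22.5%, and in members free of control domains (added after the data were seen) 7.76% and 13.1%. DKO gave 14.5% to 16.0% with 1 library left out. The SETDB1 ratio of 0.243 was 0.185 at a −log10 p of 10, 0.166 and 0.154 for peaks shared over 1 bp or 50%, 0.209 without gap stretches, 0.159 against bins near control H3K9me3 (added), and 0.231 to 0.255 by library. Members touched genes less than other eligible bins by -18.2 percentage points, -14.7 for bins over 50% genic, -26.9 without gap stretches and -22.4 against bins near control H3K9me3 (added). Control H3K27me3 was near 16.6% of members, 29.5% within 50 kb and 12.9% by shared domains. For H3K9me3, a measure added after the data were seen, the values were 59.1%, 87.6% and 39.95%. Held genes numbered 87, or 405 by any overlap and 38 at 90% of the body. Their promoters of CpG ratio at least 0.6 made up 50.0%, and 51.6% to 57.7% under the other choices. No input, spike-in factor or second culture bears on these values.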

Other observations

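Chromosome X, which the rule leaves out, held many bins that meet it. Of 10629 bins unmarked in the 4 sgControl libraries, 2451 (23.1%) were marked for H3K27me3 in all 4 knockout libraries, against 2.91% on chromosomes 1 to 22. They formed 860 stretches, the longest of 240 kb at chrX:139220001-139460000 without a protein-coding gene. H3K9me3 marked 5.43% and 5.75% of these bins in SKO and 11.3% and 8.28% in DKO, while the other eligible bins of chromosome X had 7.95% and 8.54% in SKO and 7.04% and 7.46% in DKO. In both classes the order of the genotypes was that of the pooled values over chromosomes 1 to 22.

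Starts of genes other than protein-coding ones lay at 3.77 per Mb in members and 5.21 per Mb in the other eligible bins. Of the 142 in members, 16 (11.3%) had a CpG ratio of at least 0.6, against 36.6% of 6562. The low share was not particular to the members. It was 13.4% in bins with control H3K27me3 alone, 15.3% with control H3K9me3 alone and 14.2% with both marks. Among held genes outside the rule for named genes and picked after their values were seen, the kidney and gonad transcription factor gene WT1 had H3K27me3 of 0% in both controls, 89.95% and 80.9% in SKO and 100% and 95.9% in DKO. IDO1, an interferon-inducible gene of tryptophan breakdown, had 0% in the controls and 100% in all 4 knockout libraries. CAV2, a caveolin gene on chromosome 7, had H3K27me3 over 100% in all 4 and H3K9me3 over 100% in both SKO libraries and 0% in both DKO libraries. SCUBE3, TULP1 and LHFPL5 had H3K9me3 over 0% in both controls and 100% in all 4 knockout libraries, along with H3K27me3. They lie close together at chr6:35213956-35824070, so they may not be separate cases.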
